A study of Mus musculus with 8 samples.

Results

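The genes described are Hes1, Hes5, Hes6, Hey1, Hey2, Heyl and Nrarp, 7 genes best known as transcriptional effectors or feedback regulators of the Notch pathway. They were chosen by symbol, and each was measured by 1 transcript cluster (the probes of 1 transcribed locus) of a whole-transcript mouse array whose platform annotation gives that symbol alone. They are 7 of 30738 genes measured. RNA came from primary mouse cultures in which radial glial progenitors were differentiated toward ependymal cells, which line the brain ventricles and bear motile cilia. Of 8 arrays, 4 are titled EGF, from cultures that received 20 ng/ml epidermal growth factor from the time differentiation medium was added, and 4 are titled untreated, from cultures in the same medium alone. The medium was DMEM/F12 with fetal bovine serum and antibiotics in both groups, culture lasted 2 weeks, and no strain, age or genotype is given. The source names of the same samples conflict with these titles: they give MLN4924, an inhibitor of cullin neddylation, for the EGF samples and DMSO for the untreated samples. Arrays were grouped by title, which the descriptions and the treatment protocol share, and "EGF" means the arrays so titled. The replicates 1 to 4 of a group are not stated to be separate cultures or animals; p-values therefore speak of the spread among these arrays, part or all of which may be technical.

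Notch proteins are receptors that are cut when they bind a ligand on a neighbouring cell. The freed intracellular domain enters the nucleus, joins the DNA-binding protein RBPJ and Mastermind coactivators, and switches on a small set of genes, of which the Hes, Hey and Nrarp genes are the textbook examples. Hes and Hey proteins are basic helix-loop-helix repressors. In the developing brain Hes1 and Hes5 hold progenitors undifferentiated by repressing proneural genes, and Notch activity is known to hold back multiciliated cell fate in several epithelia.

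RefSeq promoter windows on GRCm38.p6, running from 250 bases before the start of a gene to 50 bases from the start on, were matched by symbol for 4 of the 7 genes, Hes5, Hes6 (2 starts), Hey2 and Nrarp. Hes1, Hey1 and Heyl were not matched. The sequences of Hes5, Hey2 and Nrarp are shown because they contrast in the letters of the RBPJ site. Capitals mark TGGGAA, the core of that site, or TTCCCA, the same core read on the other strand. The Hes5 stretch is chr4:154960673-154960922 on the plus strand, the Nrarp stretch is chr2:25180508-25180757 on the plus strand, and the Hey2 stretch is chr10:30842781-30843033 on the minus strand, with 3 bases from the start on so that its second core is whole.
Hes5: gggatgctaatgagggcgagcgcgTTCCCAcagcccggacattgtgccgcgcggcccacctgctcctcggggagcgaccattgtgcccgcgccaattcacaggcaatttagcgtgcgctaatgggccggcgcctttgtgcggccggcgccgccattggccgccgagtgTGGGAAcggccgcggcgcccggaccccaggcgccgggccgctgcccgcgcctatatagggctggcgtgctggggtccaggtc
Hey2: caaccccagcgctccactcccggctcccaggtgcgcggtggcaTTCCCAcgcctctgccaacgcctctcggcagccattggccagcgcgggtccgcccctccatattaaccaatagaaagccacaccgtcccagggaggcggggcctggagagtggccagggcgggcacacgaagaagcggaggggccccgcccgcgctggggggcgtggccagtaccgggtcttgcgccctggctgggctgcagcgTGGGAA
Nrarp: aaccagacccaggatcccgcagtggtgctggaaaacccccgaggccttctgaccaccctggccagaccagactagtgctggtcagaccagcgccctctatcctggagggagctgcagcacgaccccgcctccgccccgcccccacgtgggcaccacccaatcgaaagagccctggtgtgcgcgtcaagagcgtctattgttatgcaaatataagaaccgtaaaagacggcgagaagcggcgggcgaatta
The longer form GTGGGAA, searched on both strands, occurred 2 times in the Hes5 window, beginning 226 and 83 bases before the start, and 2 times in the Hey2 window, beginning 207 and 4 bases before it. In both windows the distal copy lies on the opposite strand to the gene and the proximal copy on the gene's own strand. Of all 32851 windows, 6.38% held GTGGGAA at least once and 0.256% at least 2 times, while the core TGGGAA, which the longer form contains, occurred in 25.6%. Neither form occurred in the Nrarp window or in the 2 Hes6 windows. The N box CACNAG, a sequence that Hes proteins bind, occurred 2 times in the Nrarp window, beginning 179 and 79 bases before the start, both on the opposite strand, and 2 times in 1 Hes6 window. It occurred in neither the Hes5 nor the Hey2 window. Of all windows, 42.5% held it at least once and 11.3% at least 2 times. A match is a description of letters and not a site shown to be bound.

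All values are log2 signals as deposited. Array medians were 4.71 to 4.82 in the EGF group and 4.56 to 4.60 in the untreated group, and the arrays correlated across all clusters at r = 0.994 to 0.995 within the EGF group and 0.996 to 0.997 within the untreated group. In limma, with Benjamini-Hochberg adjustment over 30738 genes and a threshold of 0.05, 60.3% of genes changed, 39.7% rising and 20.7% falling. Over all genes the median log2 fold change was 0.17, so changes are also given relative to it. That shift was 0.0083, -0.020 and -0.011 after a further quantile normalization, centring of each array on its median and cyclic loess. With 4 arrays per group, the number of arrays limits the precision.

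With EGF, 6 of the 7 genes rose and 0 fell, and 1, Heyl, did not pass. The background was 39.7% of genes rising, and 34.0% of genes had all 4 EGF arrays above all 4 untreated arrays, as did these 6. The median log2 fold change of the 7 genes was 0.90, against 0.17 for all genes. Relative to the median of all genes the log2 changes were 3.12 for Nrarp, 1.94 for Hes1, 0.73 for Hes5, 0.73 for Hes6 and -0.13 for Heyl. Those of Hey1 and Hey2 are given below. Nrarp and Hes1 rose more than 2-fold, which 6.25% of genes did. Since the genes were chosen with results of these data known, the counts are a description and no test was made of the set.

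**Figure D1:**
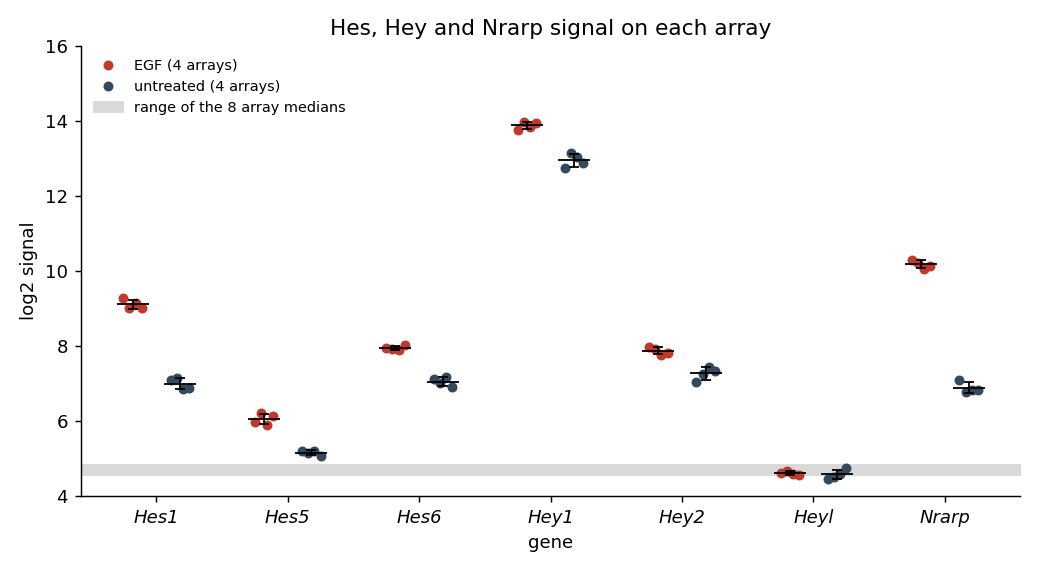
Log2 signal (vertical axis) of the 7 genes (horizontal axis) on each array, EGF (red) left of untreated (dark blue); bars are the group mean ± SD (n = 4) and the grey band spans the 8 array medians. The EGF points lie above the untreated points for all genes but Heyl, whose 8 points lie in or beside the grey band.

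Hes1 encodes the repressor that keeps neural progenitors from differentiating. It had log2 signals of 9.27, 9.02, 9.14 and 9.01 on EGF arrays, against 7.10, 7.16, 6.85 and 6.89 on untreated arrays. The lowest EGF value lay 1.85 above the highest untreated value. The rise was 4.32-fold (95% interval 3.74 to 4.98), or 2.11 ± 0.09 on the log2 scale (SE, limma adjusted p = 2.9e-08), and was the 299th largest rise of all genes. Hes5, a related repressor of neural progenitors and a widely used readout of Notch activity, had 5.98, 6.22, 5.90 and 6.13 on EGF arrays, against 5.21, 5.16, 5.20 and 5.08 on untreated arrays. The groups did not overlap. Its untreated values lay close above the array medians, where most clusters lie, so the fold can be understated. Hes5 rose 1.86-fold (1.64 to 2.11), a log2 change of 0.90 ± 0.08 (SE, limma adjusted p = 5.3e-06).

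Hes6 differs in role from the other Hes genes, since in mouse its product inhibits Hes1 and favours neuronal differentiation. Its signals were 7.96, 7.92, 7.90 and 8.03 on EGF arrays, against 7.13, 7.01, 7.17 and 6.91 on untreated arrays. The groups again did not overlap, and the EGF arrays lay close together. Hes6 rose 1.86-fold (1.66 to 2.09; log2 0.90 ± 0.07 SE, limma adjusted p = 2.6e-06). Hes6 thus rose in the same cultures as Hes1 and Hes5.

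The Hey genes encode repressors best known from heart and vessel development. Hey1 had 13.77, 13.96, 13.84 and 13.95 on EGF arrays, against 12.75, 13.14, 13.04 and 12.87 on untreated arrays, with no overlap. It rose 1.91-fold (1.65 to 2.20; log2 0.93 ± 0.09 SE, limma adjusted p = 1.2e-05). Hey2 had 7.98, 7.92, 7.77 and 7.82 on EGF arrays, against 7.05, 7.26, 7.44 and 7.35 on untreated arrays. The gap between the groups was 0.33, the smallest among the 6 genes that rose. Hey2 rose 1.51-fold (1.31 to 1.74; log2 0.60 ± 0.09 SE, limma adjusted p = 2.8e-04), and this call ended when a change of more than 1.5-fold was required (adjusted p = 1, limma's treat, under which 16.9% of genes passed and 5 of the 7). Relative to the median of all genes the rises were 0.76 for Hey1 and 0.43 for Hey2 on the log2 scale.

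Heyl, the remaining Hey gene, known from the smooth muscle of vessels, had 4.63, 4.67, 4.60 and 4.57 on EGF arrays, against 4.47, 4.52, 4.59 and 4.74 on untreated arrays. The groups overlapped, and all 8 values lay at or beside the array medians, so the gene was dim in both groups. Its log2 fold change was 0.04 ± 0.07 (SE, limma adjusted p = 0.656), with a 95% interval of -0.12 to 0.20. The interval runs from 0.919-fold to 1.15-fold, and a signal at this level can understate a change. The sign had no settled direction: it was -0.15 after quantile normalization, -0.15 after median centring and -0.16 after cyclic loess.

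Nrarp encodes a small ankyrin repeat protein that is induced by Notch and binds the complex of the Notch intracellular domain and RBPJ, limiting its activity. It had 10.30, 10.22, 10.05 and 10.14 on EGF arrays, against 7.11, 6.79, 6.82 and 6.83 on untreated arrays. The lowest EGF value lay 2.94 above the highest untreated value, and untreated replicate 1 lay above the other 3. Nrarp rose 9.78-fold (8.53 to 11.2), a log2 change of 3.29 ± 0.09 (SE, limma adjusted p = 1.0e-09), and was the 89th largest rise of all genes.

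**Figure D2:**
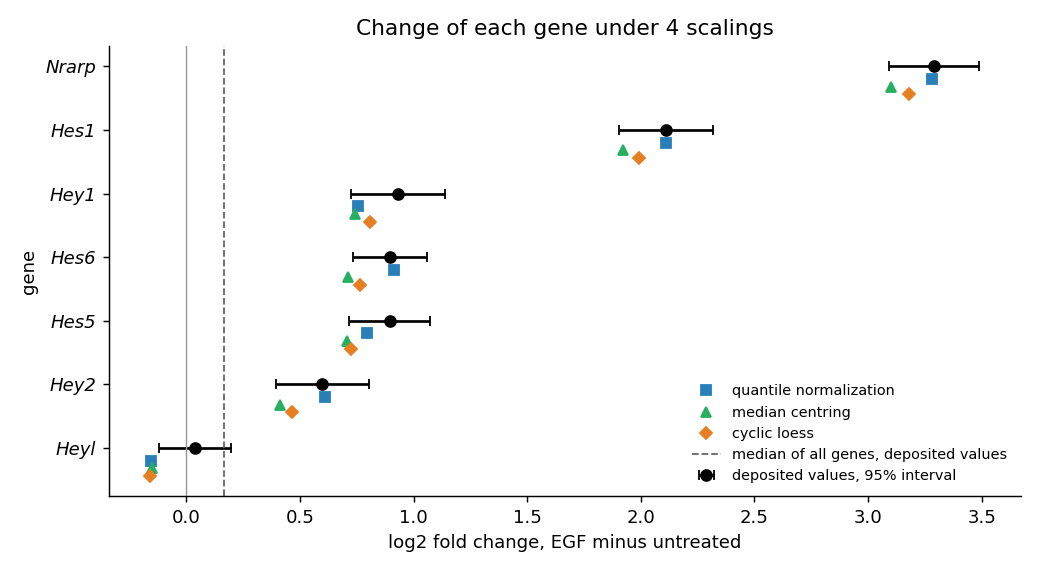
Log2 fold change of each gene, EGF minus untreated, with the deposited values (black, 95% limma interval) and after 3 other scalings (colours); the dashed line is the median of all genes, 0.17. Nrarp (3.10 to 3.28 under the other scalings) and Hes1 (1.92 to 2.11) stand apart from Hes5, Hes6, Hey1 and Hey2, and Heyl turns negative.

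The genes did not rise by equal amounts. For each of 21 pairs the difference of their log2 signals within an array was compared between groups with a two-sided exact permutation test, adjusted over the pairs. Of the 15 pairs without Heyl, the 2 changes differed in 9 (exact permutation adjusted p = 0.04, from an exact p = 0.0286, the smallest that 4 against 4 arrays allow). The 6 pairs with Heyl gave the same p, but Heyl lay at the array medians, so they do not show that it changed less. Because the adjustment ran over all 21 pairs, the adjusted p of the 9 depends in part on these 6. Nrarp rose more than Hes1, Hes5, Hes6, Hey1 and Hey2, by 1.18 ± 0.11 over Hes1 (difference of log2 changes ± SE) and by 2.36 ± 0.17 over Hey1. Hes1 in turn rose more than Hes5 (1.22 ± 0.14), Hes6 (1.21 ± 0.12), Hey1 (1.18 ± 0.15) and Hey2 (1.51 ± 0.16). The 6 pairs among Hes5, Hes6, Hey1 and Hey2 did not pass. Their differences were between -0.035 ± 0.10 (Hes5 minus Hey1, exact permutation adjusted p = 0.9) and 0.33 ± 0.11 (Hey1 minus Hey2, exact permutation adjusted p = 0.075). By this test the change of Nrarp was followed by that of Hes1 and then by those of Hes5, Hes6, Hey1 and Hey2. There was no order among these 4 and no place for Heyl. The place of Hes5 is less sure, since its untreated values lay close above the array medians and its fold can be understated. The order is one of measured changes, each read by different probes.

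For each gene the 2 genes with the most like pattern were sought among all named genes, as the smallest root mean square difference over the 8 arrays after each gene was centred on its own mean. Mtmr11 (0.073 on the log2 scale) and Tmem229a (0.10) were nearest to Nrarp, and Ptn (0.098) and Eif4ebp1 (0.098) to Hes1. Rab40c (0.043) and Ckb (0.046) were nearest to Hes5, Poli (0.026) and Tmem263 (0.038) to Hes6, and Zfp292 (0.058) and Mtss2 (0.068) to Hey1. Sinhcaf (0.059) and Usp22 (0.075) were nearest to Hey2, and Zdhhc18 (0.028) and B4galnt2 (0.037) to Heyl. The likeness is mostly that of the difference between groups, and it is common for the small changes: 36 genes lay within 0.2 of Nrarp and 96 within 0.2 of Hes1, but 1633 of Hes5, 1612 of Hes6, 1139 of Hey1, 2477 of Hey2 and 9156 of Heyl.

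The rest of the pathway was more mixed. Among 4 receptors, 2 rose, 1 fell and 1 missed the threshold (median log2 fold change 0.51, against 0.17 for all genes). Notch3 had a mean of 9.24 ± 0.10 on EGF arrays and 7.18 ± 0.12 on untreated arrays (log2 signal ± SD, n = 4 each), a rise of 2.06 ± 0.08 (SE). Notch1 rose by 0.87 ± 0.09, whereas Notch2 fell by 0.85 ± 0.12. Among 8 ligands, 3 rose, 1 fell and 4 missed it (median 0.09). Those that rose were the Delta ligands: Dll1 averaged 8.63 ± 0.22 on EGF arrays and 6.94 ± 0.11 on untreated arrays (SD, n = 4 each), Dll4 rose by 0.79 ± 0.07 and Dll3, whose product does not activate Notch on neighbouring cells, by 0.62 ± 0.06. Jag1 (log2 fold change 0.13 ± 0.09, limma adjusted p = 0.218) and Jag2 (-0.04 ± 0.08, limma adjusted p = 0.658), the Jagged ligands, did not pass. Jag2 passed as a fall after median centring (-0.23) and cyclic loess (-0.21), where 3 ligands rose and 2 fell and the list's median was -0.10 and -0.06.

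Of 9 measured genes of the enzymes that cut Notch, 6 rose, 1 fell and the other 2 did not pass, at a median of 0.40. After median centring 4 rose and 2 fell (median 0.21), and after cyclic loess 6 rose and 2 fell (median 0.28). The γ-secretase subunit genes Aph1b and Aph1c rose by 1.02 ± 0.12 and 0.59 ± 0.11 and the protease gene Adam10 by 0.51 ± 0.07 (log2 ± SE). Among 18 modulators 8 rose and 5 fell, and 5 did not pass; their median was 0.04. That balance turned to 5 rising and 8 falling after median centring and to 5 and 7 after cyclic loess. Neurl1b, a ubiquitin ligase of Notch ligands, rose by 1.21 ± 0.06, Numbl, a relative of the Notch inhibitor Numb, by 0.67 ± 0.08, and Mib2, a further ligase of ligands, by 0.65 ± 0.08. Numb itself was among the 5 that fell, with a log2 change of -0.48 ± 0.07. Of 14 measured nuclear cofactors 8 rose and 2 fell, and 4 did not pass, at a median of 0.21, with 4 rising and 5 falling after median centring and 5 and 4 after cyclic loess. Rbpj rose by 0.80 ± 0.06. Tle1 rose by 0.92 ± 0.08 and Tle3 fell by 0.95 ± 0.08; both encode Groucho-type corepressors, which Hes proteins recruit.

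**Figure D3:**
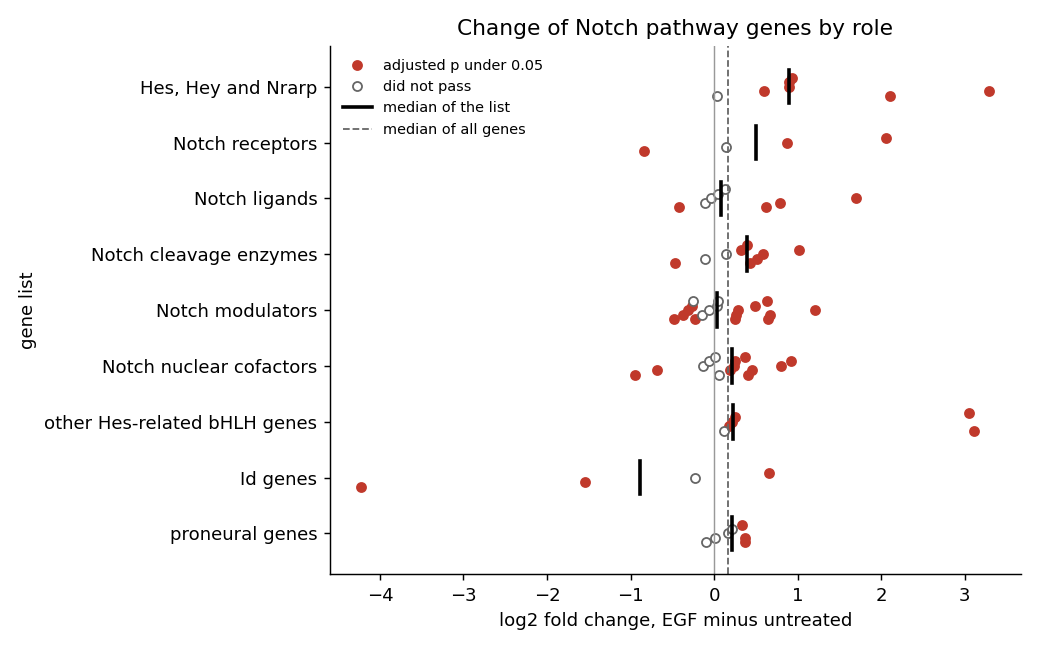
Log2 fold change, EGF minus untreated, of each measured gene of 9 lists (rows); filled points passed at an adjusted p of 0.05, open points did not, black bars are list medians and the dashed line the median of all genes, 0.17. The Hes, Hey and Nrarp median is 0.90, the Id median -0.89, and the 2 points beyond 3 among other Hes-related genes are Bhlhe40 and Bhlhe41.

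Other Hes-related genes divided into 2 with large changes and 4 with small ones. Of the 6, 5 rose and 1 did not pass (median 0.23), but under each of the 3 other scalings 2 rose and 0 fell. Those 2 were Bhlhe40 and Bhlhe41, transcriptional repressors of the circadian and low-oxygen responses. Bhlhe40 averaged 14.46 ± 0.03 on EGF arrays and 11.35 ± 0.18 on untreated arrays (SD, n = 4 each), a rise of 3.11 ± 0.09 (SE), and Bhlhe41 rose by 3.05 ± 0.07, both close in size to the rise of Nrarp. Hes3, the next largest change at 0.25 ± 0.06, lay below the array medians in both groups (4.41 with EGF and 4.16 untreated) and did not pass under the other scalings.

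The Id genes, whose products block basic helix-loop-helix activators and are induced by BMP signals, moved the other way on balance. Id2 rose, Id3 and Id4 fell and Id1 did not pass, and the median of the 4 was -0.89. Id4 averaged 7.93 ± 0.12 on EGF arrays and 12.16 ± 0.27 on untreated arrays (SD, n = 4 each), a log2 change of -4.22 ± 0.13 (SE). Id3 changed by -1.55 ± 0.08 and Id2 by 0.66 ± 0.09. Proneural genes, which Hes1 and Hes5 are known to repress, were dim: of 7 measured, 3 rose by 0.33 to 0.37 and 0 fell (median 0.21), and under each of the other scalings 1 rose and 2 fell. The 3 were Atoh1, Neurog2 and Neurog3. Neurog2, the one that rose under every scaling, changed by 0.36 ± 0.06 (SE).

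Markers of cell types moved with the groups, and in RNA from a whole culture fewer cells of a type and less RNA per cell cannot be told apart. All 15 ependymal markers fell (median -4.31), with summed signals of 9.92 to 10.13 on EGF arrays and 16.03 to 16.63 on untreated arrays (log2). A summed signal follows mostly the brightest genes of its list. Deup1 and Rsph4a fell by 8.34 ± 0.09 and 7.62 ± 0.19. The untreated cultures thus carried the labelled cell type's markers, and the EGF cultures carried them at low level. Of 14 astrocyte markers 11 rose and 3 fell (median 1.22). Their summed signals were 17.67 to 17.92 with EGF and 16.91 to 17.05 untreated. Ntsr2 (6.18 ± 0.11) and Aldh1l1 (3.36 ± 0.12) rose most, whereas S100b (-2.23 ± 0.10), Aqp4 (-1.31 ± 0.06) and Gfap (-0.48 ± 0.08) fell. After median centring and cyclic loess 10 rose and 3 fell. Of 10 radial glia and stem cell markers, of which Hes1 and Hes5 are often counted as further members, 6 rose and 4 fell (median 0.52; sums 19.42 to 19.52 with EGF and 19.31 to 19.41 untreated), with Tnc at 1.52 ± 0.16 and Prom1 at -1.89 ± 0.08.

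Other cell types were mostly lower or mixed. All 12 microglial markers fell (median -3.63; sums 11.02 to 12.01 with EGF and 16.61 to 17.47 untreated), with Lyz2 and Fcer1g lower by -5.88 ± 0.25 and -4.52 ± 0.29. Of 13 neuroblast and neuron markers 11 fell and 0 rose (median -2.10; sums 11.78 to 11.93 with EGF and 13.64 to 14.20 untreated), among them Dcx (-5.23 ± 0.14) and Stmn2 (-4.81 ± 0.09). Hes6, which favours neuronal differentiation, therefore rose where these markers fell. Among 12 endothelial markers 4 rose and 2 fell (median 0.12), with Flt1 at 1.91 ± 0.06 and Kdr at -1.43 ± 0.10. The list's summed signals were 8.88 to 8.90 with EGF and 8.51 to 8.73 untreated. Flt1, with a mean of 7.75 with EGF and 5.84 untreated, was the brightest of the list with EGF. The rises other than that of Flt1 were of clusters near or below the array medians in both groups. Under the other scalings 2 rose and 4 fell, and the median was -0.08, -0.06 and -0.07. Of 12 mural cell and fibroblast markers 8 fell and 1 rose (median -1.15), led by Col1a1 (-2.87 ± 0.29) and Pdgfrb (-2.33 ± 0.17). Their summed signals were 15.59 to 15.86 with EGF and 17.32 to 17.70 untreated, mostly from Acta2 (means 15.53 and 17.32). Under each of the other scalings 0 of these markers rose. Of 9 oligodendrocyte lineage markers 4 rose and 2 fell (sums 15.22 to 15.42 with EGF and 14.35 to 14.81 untreated; median 0.04), with Olig2 at 0.89 ± 0.11 and Gpr17 at -0.88 ± 0.16. After quantile normalization 3 rose and 1 fell (median 0.04), and after median centring and cyclic loess 2 rose and 2 fell (medians -0.15 and -0.07). Of 8 choroid plexus markers 3 fell and 0 rose (sums 8.28 to 9.95 with EGF and 9.42 to 12.57 untreated), with Kcnj13 at -4.13 ± 0.19 and Ttr, whose groups overlapped, at -3.10 ± 1.18. The part of a shift in cell types in the rises of Hes1, Hes5, Hes6, Hey1, Hey2 and Nrarp was not tested.

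**Figure D4:**
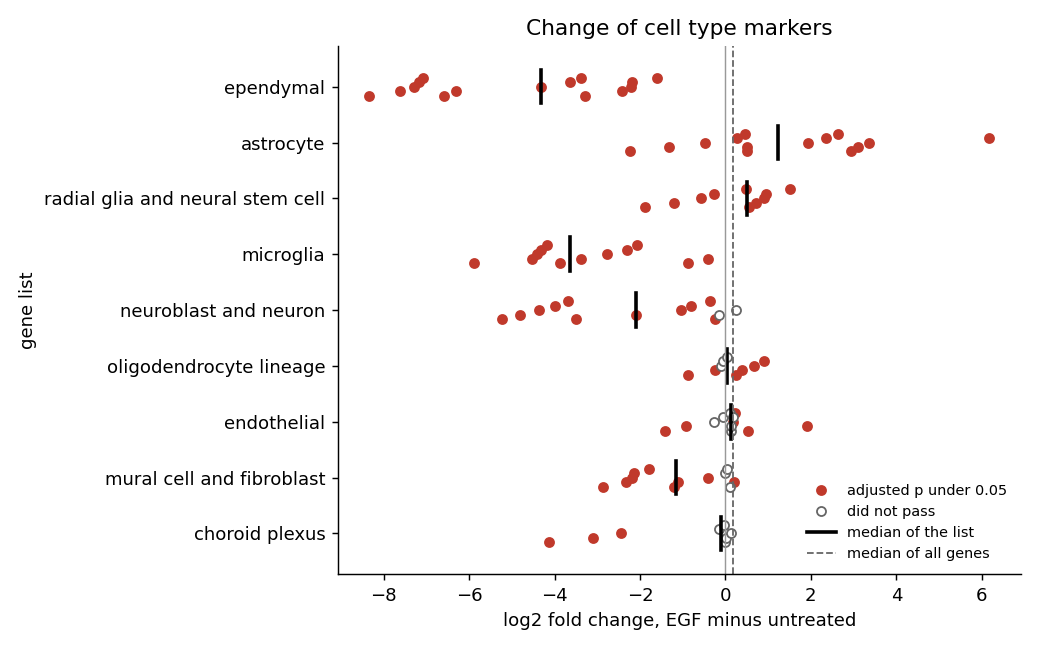
Log2 fold change, EGF minus untreated, of markers of 9 cell types (rows); filled points passed at an adjusted p of 0.05, open points did not, black bars are list medians and the dashed line the median of all genes. The ependymal (-4.31), microglial (-3.63) and neuronal (-2.10) medians are negative and the astrocyte median (1.22) is positive.

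The authors' deposited table of ctrl against gf comparisons, which lists 4136 clusters with an absolute log2 difference of at least 1, holds 3 of the 7 genes. For Hes1 the authors' deposited table gives averages of 8.49 in gf and 7.42 in ctrl (p = 0.014, false discovery rate 0.088), a difference of 1.07 (gf minus ctrl), with the sign of EGF minus untreated on the arrays. For Hey1 the authors' deposited table gives 14.18 in gf and 15.33 in ctrl (p = 0.0047, false discovery rate 0.044), a difference of -1.15 (gf minus ctrl) where EGF minus untreated was 0.93 on the 8 arrays. For Hey2 the authors' deposited table gives 7.48 in gf and 8.68 in ctrl (p = 0.0090, false discovery rate 0.066), a difference of -1.20 where the arrays gave 0.60. Hes5, Hes6, Heyl and Nrarp, the last with the largest rise of the 7 genes on these arrays, are not among the clusters of the authors' deposited table. The averages in the authors' deposited table are not those of the 8 arrays: over the 4136 clusters 82.7% of gf averages lay outside the range of the 4 EGF arrays and 84.6% of ctrl averages outside that of the 4 untreated arrays, and 620 differences had the opposite sign. The sources used here do not say from which arrays or by which processing the authors' deposited table was made. Whether its gf and ctrl are the EGF and untreated groups of the arrays is not stated either.

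**Figure D5:**
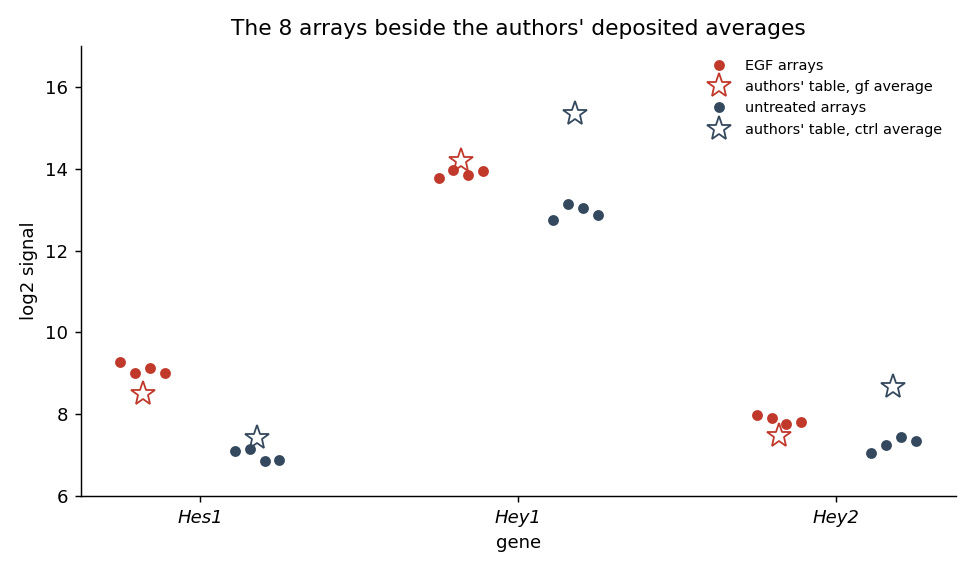
Log2 signal of Hes1, Hey1 and Hey2 on the 4 EGF (red, left) and 4 untreated (dark blue, right) arrays, with the gf and ctrl averages of the authors' deposited table as open stars. The ctrl stars of Hey1 (15.33) and Hey2 (8.68) lie above their gf stars (14.18 and 7.48), opposite to the arrays.

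Among other Notch pathway genes in the authors' deposited table, Notch3 differs by 1.56, Dll4 by 1.06, Tle1 by 1.03 and Dner by -1.36 (gf minus ctrl, log2). Of the other Hes-related genes and the Id genes, Bhlhe40 differs by 2.00, Bhlhe41 by 1.25, Id3 by -1.62 and Id4 by -4.16. All of these have the sign seen on the arrays. Jag1 and Dlk1, which did not pass on the arrays (log2 fold changes 0.13 and -0.12), differ by 2.64 and 1.32 in the authors' deposited table. The sign for Dlk1 is thus opposite to that on the arrays.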

How the data were processed

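Biotin-labelled RNA of 8 samples of primary cultures was measured on 8 arrays, 4 titled EGF and 4 titled untreated. The authors deposited log2 signals per transcript cluster; the log base was inferred from the values' range and from the header of the second table. The submitters' processing notes name RMA, affy and limma with neither role nor version. How arrays were centred and the array's genome build are not given in the sources used here. A second table deposited by the authors holds, per the file headers, averages of log2 signal in ctrl and gf, with a p-value and false discovery rate per cluster.

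Of 65956 clusters, 31292 were paired with 1 gene through the platform annotation and a RefSeq table of GRCm38.p6 (31290 matched), and the brightest cluster per gene gave 30738 genes. The fit to the deposited values used limma 3.58.1 in R 4.3.3 (lmFit, then eBayes), with two-sided p-values adjusted over all genes. No filter on dim clusters was applied. The steps were tested on simulated data. Tables and plots used Python 3.11.15, pandas 2.3.3, numpy 2.4.6 and matplotlib 3.10.9.

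The genes and lists were chosen with earlier results of these data known. Named are the 7 genes, up to 3 genes of each pathway list and up to 2 of each cell type list with the largest change among those that passed, and the 2 most like genes of each of the 7. Jag1, Jag2, Numb, S100b, Aqp4, Gfap and Acta2, and the pathway genes of the authors' table, were named after their values were seen. Alternatives were 3 scalings, a filter at a mean of 6, other cluster choices, a replicate block, each array left out, weights per array, a trended and robust variance prior, an adjusted p under 0.01 and treat at 1.5-fold. Each of the 7 genes had 1 cluster, so testing further clusters did not apply. A planned comparison of protein sequences was not made.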

Additional observations from a re-analysis of the deposited data

Results flagged for a closer look

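Nrarp on untreated replicate 1 had a log2 signal of 7.11, apart from 6.79, 6.82 and 6.83 on the other untreated arrays: its gap to the nearest was 0.875 of the range of the group, above Dixon's 95% critical value. Of 14 groups checked (7 genes in 2 groups) 1 was so flagged, and chance flags about 1 in 20. Without that array the log2 fold change of Nrarp was 3.36.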

How the results depend on the processing

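Hes1, Hes5, Hes6, Hey1 and Nrarp kept their direction and passed under all 19 alternatives, and Hey2 under 18, all but treat at 1.5-fold, where it did not pass. Their log2 fold changes ranged over 1.92 to 2.16 for Hes1, 0.71 to 0.95 for Hes5, 0.71 to 0.94 for Hes6, 0.74 to 0.99 for Hey1, 0.41 to 0.65 for Hey2 and 3.10 to 3.36 for Nrarp. Not all alternatives could alter a fold change. With 1 cluster per gene the other cluster choices could not. The filter, replicate block, variance prior, stricter threshold and treat bear on the p-value or the call only. Heyl passed under none of 18 and reversed to -0.1539 (quantile), -0.15 (median centring) and -0.1601 (cyclic loess). Genes called over the whole array numbered 18549, against 11699 with clusters reaching a mean of 6 alone, where fewer genes were tested, and 5190 with treat, which asks for a larger change; of pathway genes outside the 7, 48 were called, against 13 with treat. The share of calls that rose was 65.8% with the deposited values and 48.8%, 40.2% and 43.0% after quantile normalization, median centring and cyclic loess; for pathway genes it was 75.0% of 48 called, and 65.9% of 44, 48.9% of 45 and 55.6% of 45 called. A replicate block gave 17437 calls and 6 of the 7 genes; same-numbered arrays did not deviate together (r of -0.084, -0.0032, -0.054 and -0.026), and no EGF array correlated best with its own number, so the numbers were not taken as pairs. Pairs that passed numbered 15 also after quantile normalization and cyclic loess; median centring cannot alter a difference within an array, and with the deposited values all 15 lay at the smallest p the design allows, so the count says nothing of stability. With an array left out the smallest exact p is 0.0571, so that test was not run. No detection calls were used, so it is not known which dim clusters, Heyl among them, lay above background, and changes of such clusters can be understated.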
